A study of Bos taurus with 11 samples.

Results

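Transcripts of 7 genes that build the simple epithelial skeleton were followed in single bovine blastocysts: the keratins KRT8, KRT18, KRT19 and KRT7, and the actin linkers EZR, MSN and VIL1. They were taken by symbol from 12038 genes listed in at least one of the 2 deposited tables, and each of them had 1 RefSeq transcript in both. For 6 of the 7, both tables held a mean normalized count of 10 or more, so they were tested, and VIL1 was below it. Embryos were collected on day 7 after in vitro fertilization, labelled early blastocysts, and fall into a WT control group of 3, a GATA3 KO group of 4 and a CDX2 KO group of 4. All of them had been injected as zygotes with mRNA of the cytosine base editor BE3, an enzyme that changes C to T where a guide RNA directs it. WT control embryos received no guide RNA, GATA3 KO embryos a mix of GATA3 sgRNAs and CDX2 KO embryos a mix of CDX2 sgRNAs, designed to create premature stop codons. The edit was made by injection, so an embryo can be mosaic, and each whole embryo gave 1 Smart-seq2 library that pools trophectoderm (TE) and inner cell mass (ICM).

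Keratins are intermediate filament proteins that assemble as pairs of a type I and a type II chain. KRT8 and KRT7 are type II, and KRT18 and KRT19 are type I. KRT8 and KRT18 form the first keratin pair of the mammalian embryo and are known as markers of the TE, the outer epithelium of the blastocyst. EZR (ezrin) and MSN (moesin) belong to the ERM family, which tethers membrane proteins to cortical actin, and ezrin lies at the apical microvilli of outer blastomeres. VIL1 (villin) bundles actin in microvilli and is best known from gut epithelium. GATA3 and CDX2 are transcription factors of the TE.

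Embryos were compared only within a table, since each table was normalized on its own. Recovered counts summed to between 150057 and 540775 per embryo for the GATA3 KO table, and to between 100731 and 662962 for the other. The 2 tables share the WT control embryos, and CDX2 KO embryo 3 had the fewest counts and stood apart, with a mean r across 5719 transcripts of 0.473 with the other embryos, against 0.689 to 0.767 for the rest. TE markers were present, with GATA2 and DAB2, picked here from that list, at 110 to 143 and 168 to 346 normalized counts in WT control embryos of the table of GATA3 KO, while ELF5, IFNT2 and IFNT3 were not listed there. The targeted GATA3 transcript was at 71.3 to 87.6 in WT control and at 9.85 to 13.1 in GATA3 KO embryos. The CDX2 transcript was at 6.88 to 11.1 in WT control and at 1.66 to 4.66 in CDX2 KO embryos, from 14 recovered counts or fewer. It was also lower without overlap in GATA3 KO embryos, at 0 to 3.45 against 4.66 to 9.73 in WT control, from 9 counts or fewer and with no test. Among the transcripts tested for GATA3 KO, 18.9% had no overlap. By immunostaining, which measures protein, the paper reports no change of CDX2 intensity in GATA3 KO embryos. WT control embryos 1 to 3 had 50, 98 and 29 counts of 4 Y-linked transcripts in the table of GATA3 KO and GATA3 KO embryo 6 had 68, whereas GATA3 KO embryos 3, 4 and 5 had 0, 0 and 2. In the table of CDX2 KO the WT control embryos had 80, 149 and 46, embryo 5 had 155 and embryos 2, 3 and 4 had 0. The sex of the embryos is not given in the labels.

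In GATA3 KO blastocysts, the type I keratins KRT18 and KRT19 had the lowest values relative to WT control among the 6 tested members, KRT8 was nearly level, and MSN was higher in 3 of 4 embryos. None of these differences passed the threshold of limma, for which the adjusted p had to be 0.05 or less and the KO to WT ratio 1.5 or more, or 0.6 or less. Of 4271 transcripts tested, 2.01% passed it, and 0 of the 6 members did. At an unadjusted p under 0.05 there were 3 members, KRT18, KRT19 and MSN, where 22.6% of all transcripts lay under that value. The median log2 fold change was -0.23 over the 6 members and 0.11 over all transcripts tested. The groups overlapped in all 6 members, whereas they did not overlap for 18.9% of all transcripts tested.

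**Figure D1:**
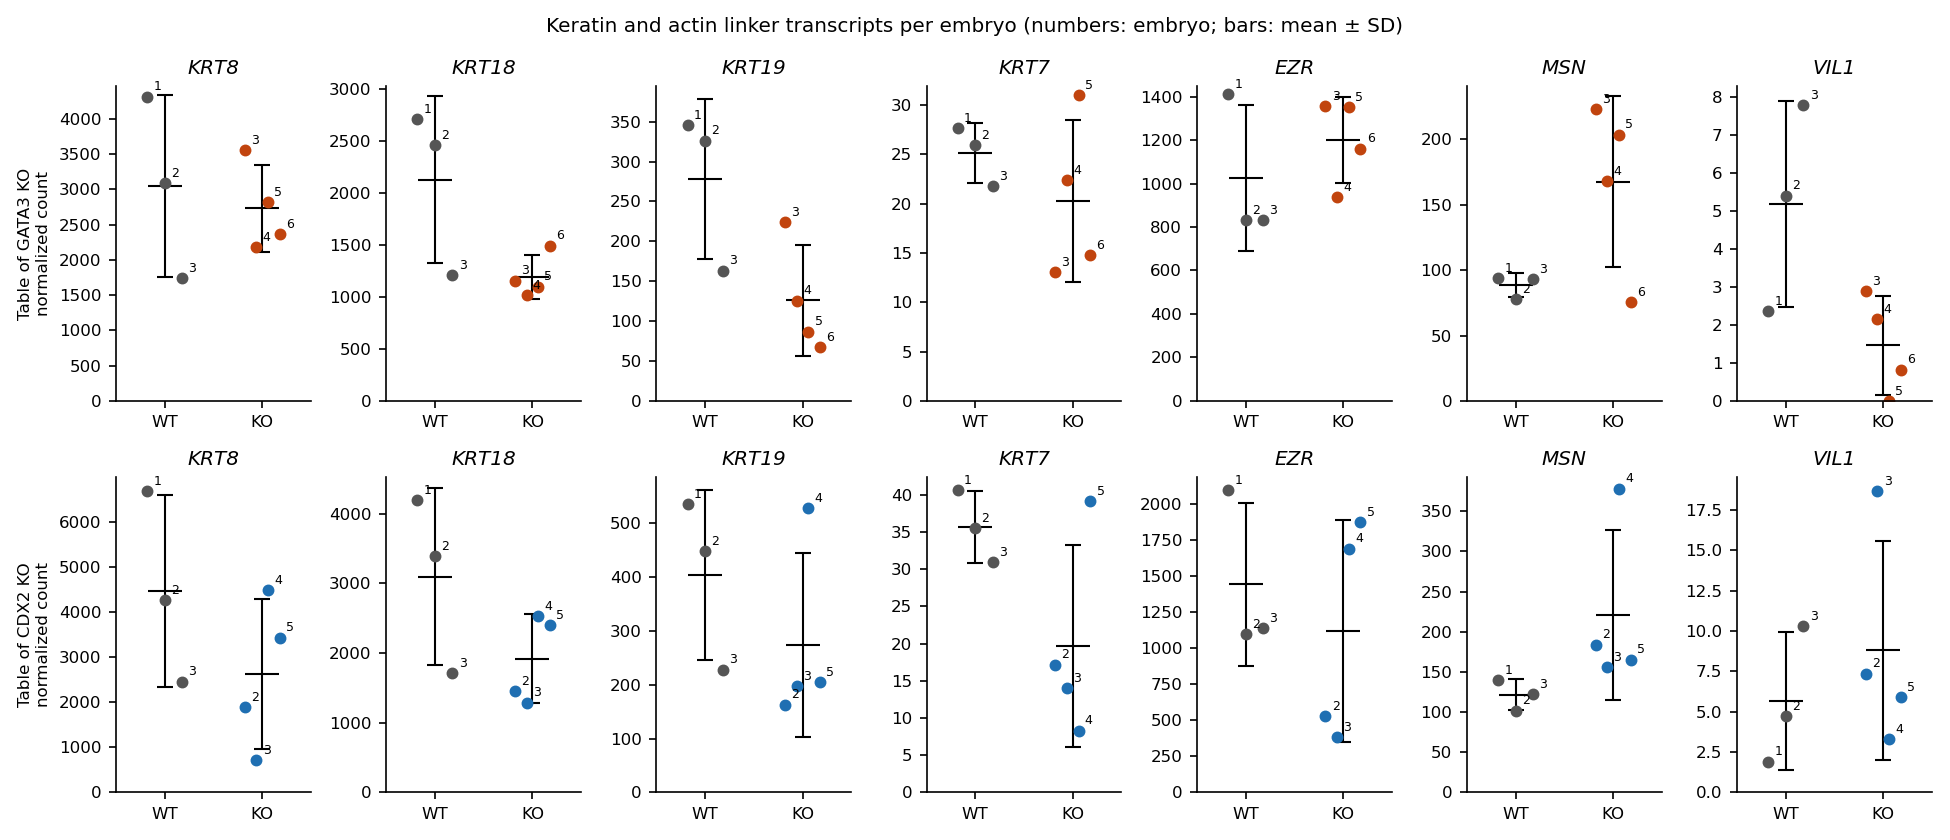
Normalized counts (vertical axes, linear from 0) of the 7 transcripts in each embryo, with the table of GATA3 KO above and that of CDX2 KO below, where points are embryos with their numbers and bars are the mean ± SD of 3 WT control and 4 KO embryos. In the upper row GATA3 KO embryos 3, 4 and 5 lie below every WT control embryo for KRT18 and above every one for MSN.

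KRT18, the type I partner of KRT8, had 2711, 2462 and 1212 normalized counts in the WT control embryos, listed here and below in the order 1 to 3. GATA3 KO embryos, listed in the order 3 to 6, had 1158, 1019, 1099 and 1494. WT control embryo 3 lay close to the KO embryos, and 3 of 4 GATA3 KO embryos were below every WT control embryo. The means were 2128 ± 803 (SD, n = 3) and 1193 ± 209 (SD, n = 4), and the log2 fold change was -0.77 (95% interval -1.33 to -0.20, adjusted p = 0.111 from limma). DESeq2 on the recovered reads gave an adjusted p of 0.0221 and edgeR one of 0.0561, where DESeq2 called 3.7% of transcripts and edgeR 2.95%.

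KRT19, a small type I keratin of simple epithelia, was at 346, 326 and 163 in WT control, whereas the GATA3 KO embryos held 224, 126, 86.9 and 67.3. Again WT control embryo 3 was the lowest of its group, and GATA3 KO embryo 3 alone reached into the WT control range. The means were 278 ± 100 (SD, n = 3) and 126.1 ± 69.8 (SD, n = 4), and KRT19 had a log2 fold change of -1.21 (95% interval -1.95 to -0.47, adjusted p = 0.0636 from limma). This was the member nearest to the threshold, and it passed with edgeR (adjusted p = 0.0455), with DESeq2 (0.0238) and with limma when no filter (0.0471) or a mean of at least 100 (0.0386) was required. It did not pass in any of the 7 limma fits that left out 1 embryo, where the adjusted p ran from 0.0658 to 0.283.

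KRT8 is the type II partner. WT control embryos held 4318, 3091 and 1746, against 3563, 2180, 2824 and 2368 for GATA3 KO. All GATA3 KO embryos lay inside the WT control range, which spanned 2.47-fold. The log2 fold change was -0.09 (95% interval -0.68 to 0.50, adjusted p = 0.872 from limma), and without WT control embryo 1 it was 0.21. KRT7, a type II keratin found in ducts, glands and placenta, was at 27.6, 25.9 and 21.8 in WT control and at 13.02, 22.4, 31.0 and 14.8 in GATA3 KO embryos. These values rest on 9 to 52 recovered counts, and the KO embryos lay on both sides of the WT control embryos. The log2 fold change was -0.37 (95% interval -1.06 to 0.33, adjusted p = 0.533 from limma).

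Because KRT8 and KRT18 make up 1 filament, their ratio was taken per embryo, a value that does not depend on the scaling of the embryo apart from a pseudocount of 1. It is not corrected for transcript length, so only its difference between embryos is read. KRT8 was 1.59, 1.26 and 1.44 times KRT18 in WT control. For GATA3 KO the ratio was 3.08, 2.14, 2.57 and 1.58. GATA3 KO embryos 3, 4 and 5 were above every WT control embryo, and embryo 6, which alone in this group had many Y-linked counts, lay just below WT control embryo 1. WT control embryos had a mean log2 ratio of 0.51 ± 0.17 (SD, n = 3), against 1.19 ± 0.41 (SD, n = 4) for GATA3 KO. The difference of 0.68 did not reach significance (p = 0.0857, two-sided exact permutation test with 35 possible splits; 0.171 once adjusted by Benjamini-Hochberg for the 2 tables), and the smallest p that 3 embryos against 4 allow is 0.0286. With KRT7 added to KRT8 and KRT19 to KRT18, the ratio of type II to type I counts was 1.12 to 1.42 in WT control and 1.53 to 2.59 in GATA3 KO embryos. These 2 sums are dominated by KRT8 and KRT18, and no test was made of them.

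**Figure D2:**
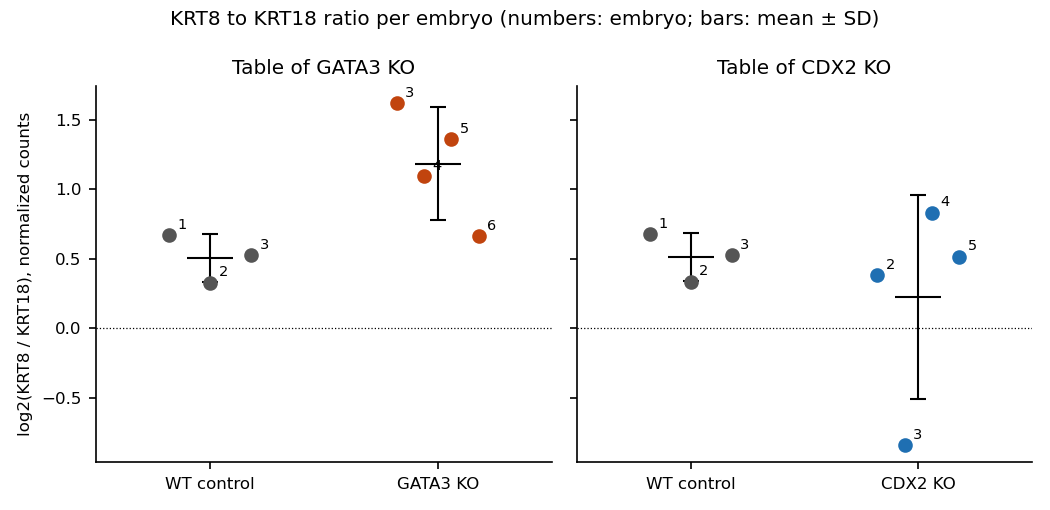
The log2 ratio of KRT8 to KRT18 normalized counts (vertical axis) in each embryo, for the table of GATA3 KO on the left and that of CDX2 KO on the right, where points are embryos with their numbers and bars are the mean ± SD. The 3 highest values of the left panel are GATA3 KO embryos 3, 4 and 5, and CDX2 KO embryo 3 is the only embryo below 0 in the right panel.

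Among the actin linkers, EZR was at 1412, 832 and 833 in WT control and at 1355, 937, 1352 and 1161 in GATA3 KO. All 4 KO values lay inside the WT control range. The log2 fold change was 0.26 (95% interval -0.25 to 0.77, adjusted p = 0.551 from limma), and it ran from 0.13 to 0.51 with an embryo left out.

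MSN was at 93.9, 77.8 and 93.3 in WT control, and GATA3 KO embryos held 223, 168, 204 and 75.5. Embryos 3, 4 and 5 were above every WT control embryo, and embryo 6 was below every one. The means were 88.3 ± 9.11 (SD, n = 3) and 168 ± 65.4 (SD, n = 4), a ratio of 1.90, and the log2 fold change was 0.81 (95% interval 0.15 to 1.47, adjusted p = 0.146 from limma). Without GATA3 KO embryo 6 it was 1.15 (adjusted p = 0.0215), the only one of the fits that left out 1 embryo in which MSN passed. The ARS-UCD2.0 annotation places MSN on chromosome X. The 3 embryos with high values are the 3 with at most 2 Y-linked counts, and the 4 embryos with 29 or more were between 75.5 and 93.9. With a covariate for having Y-linked counts or not, added once the data had been seen, the log2 fold change was -0.22 (adjusted p = 0.837 from limma). In that fit KRT18 had -0.43 and KRT19 -1.96 (adjusted p = 0.670 and 0.196). All WT control embryos had Y-linked counts, so among embryos with such counts GATA3 KO was represented by embryo 6 alone, and embryos 3, 4 and 5 had no WT control embryo like them.

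**Figure D3:**
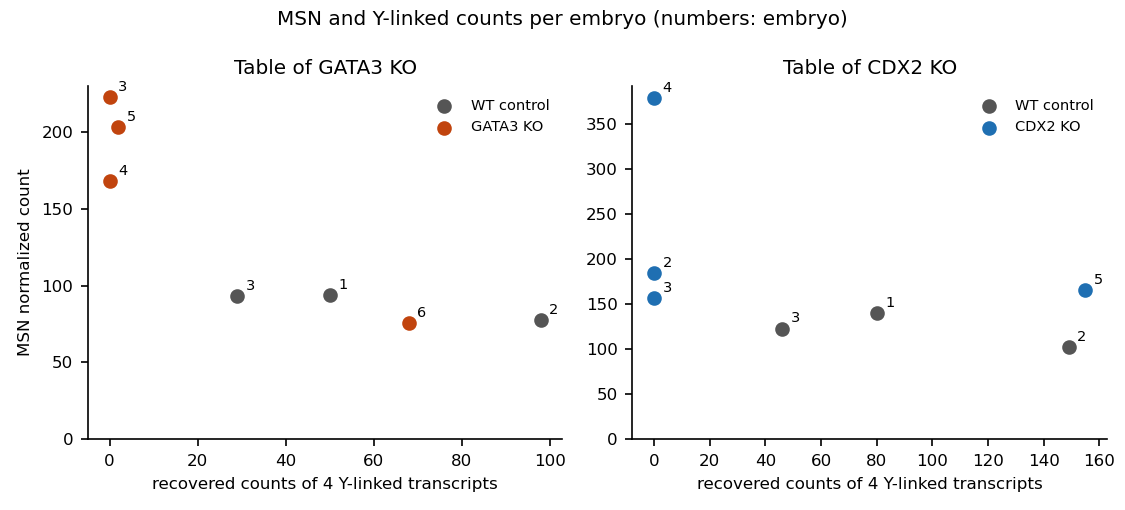
Normalized counts of MSN (vertical axes) against the summed recovered counts of TSPY, USP9Y, DDX3Y and EIF1AY (horizontal axes) in each embryo, for both tables, with points numbered by embryo. On the left the 3 embryos with at most 2 Y-linked counts have 168 to 223 and the other 4 have at most 93.9, while on the right CDX2 KO embryo 5, with 155 Y-linked counts, lies between embryos 3 and 2, which have 0.

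VIL1 was near the detection floor, taken as 3 counts, and was not tested. WT control embryos had 3, 5 and 5 recovered counts and GATA3 KO embryos 2, 5, 0 and 1, so the normalized counts were 2.37 to 7.77 and 0 to 2.89. Of the 7 embryos of the table, 3 were below the floor and 1 at it. The mean of GATA3 KO embryos was 0.283 times that of WT control, with 3 of 4 embryos below every WT control embryo. In the table of CDX2 KO, WT control embryos had 3, 6 and 9 counts and CDX2 KO embryos 2 to 5 had 6, 8, 4 and 11, and the groups overlapped.

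In CDX2 KO blastocysts the means of all 4 keratins and of EZR were below WT control and that of MSN was above it. From the lowest to the highest CDX2 KO embryo KRT8 spanned 6.27-fold and EZR 4.87-fold, whereas KRT18 spanned 1.96-fold, less than the 2.46-fold in WT control. No member passed the threshold, and 0 of 5719 transcripts (0.0%) did. At an unadjusted p under 0.05 there were 0 of the 6 members with limma, against 3.27% of all transcripts. With edgeR and DESeq2 on the recovered reads 0 members passed as well, where these tools called 0.0175% and 0.175% of transcripts. The median log2 fold change was -0.65 over the members and -0.15 over all transcripts tested.

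**Figure D4:**
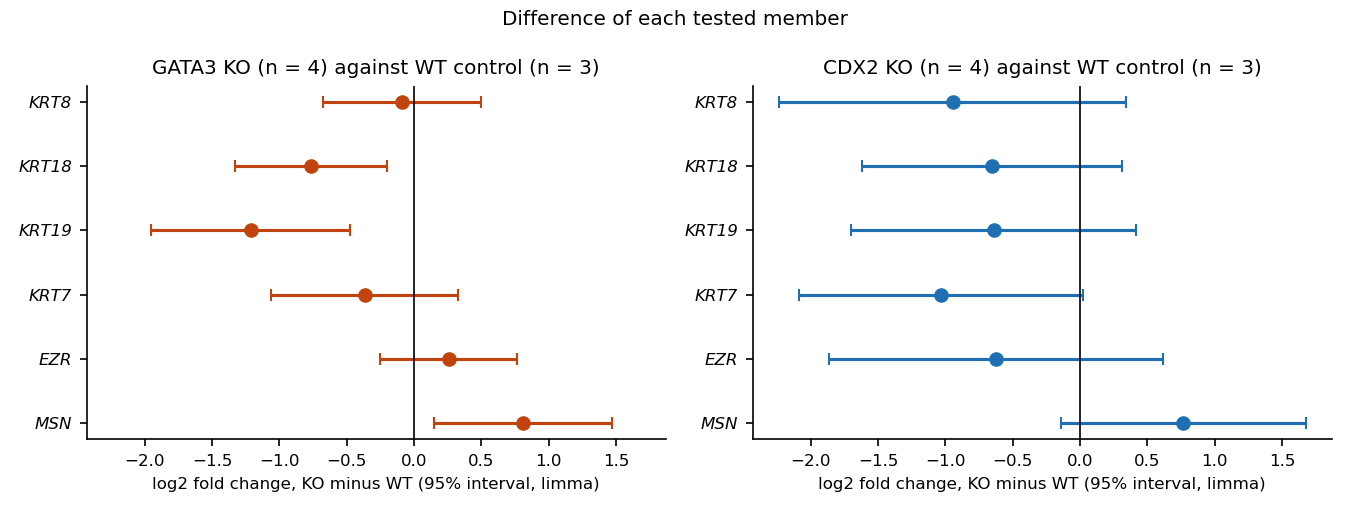
Log2 fold change of KO minus WT control (horizontal axis) of the 6 tested members, for GATA3 KO on the left and CDX2 KO on the right, where points are limma estimates and bars their 95% intervals. In GATA3 KO the intervals of KRT18, KRT19 and MSN leave out 0, and in CDX2 KO every interval holds it.

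KRT8 was at 6698, 4268 and 2460 in WT control, and CDX2 KO embryos, in the order 2 to 5, held 1895, 718, 4500 and 3437. Embryos 2 and 3 were below every WT control embryo, and embryos 4 and 5 lay inside the WT control range. The log2 fold change was -0.95 (95% interval -2.24 to 0.34, adjusted p = 0.900 from limma), and -0.42 without CDX2 KO embryo 3. KRT18 was at 4193, 3384 and 1706 in WT control and at 1455, 1289, 2526 and 2404 in CDX2 KO embryos, with the same 2 embryos below every WT control embryo. Its log2 fold change was -0.65 (95% interval -1.62 to 0.31, adjusted p = 0.900 from limma), and its sign depended on the scaling, with 0.075 after quantile normalization. That scaling also brought KRT8 to -0.42, KRT19 to -0.21 and EZR to -0.36. With the covariate for Y-linked counts, which sets CDX2 KO embryo 5 alone against WT control, KRT8 was at -0.26 and KRT18 at -0.27.

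The KRT8 to KRT18 ratio was 1.30, 0.557, 1.78 and 1.43 in CDX2 KO embryos 2 to 5. Embryos 2 and 5 lay inside the WT control range (1.26 to 1.597), embryo 4 was above it, and embryo 3, with 308 counts of KRT8 and 553 of KRT18, was far below it. The difference in mean log2 ratio was -0.29 (p = 0.800 in the same exact test), or 0.064 without embryo 3. Whether the ratio differed between GATA3 KO and CDX2 KO embryos was not tested.

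KRT19 was at 535, 449 and 228 in WT control and at 163, 198, 529 and 205 in CDX2 KO embryos 2 to 5. Embryo 4 was close to the highest WT control embryo, and the other 3 were below the lowest. The log2 fold change was -0.64 (95% interval -1.70 to 0.42, adjusted p = 0.900 from limma), and -0.54 without embryo 3. It was -1.01 without embryo 4 or without WT control embryo 3, and -0.39 without WT control embryo 1. KRT7 was at 40.6, 35.5 and 30.9 in WT control and at 17.2, 14.0, 8.29 and 39.2 in CDX2 KO embryos, from as few as 6 recovered counts. Here embryo 5 was inside the WT control range and the other 3 were below it. Its log2 fold change was -1.03 (95% interval -2.08 to 0.02, adjusted p = 0.900 from limma). It was -0.95 without embryo 3 and 0.14 with the covariate for Y-linked counts, which embryo 5 alone of its group had.

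EZR was at 2097, 1098 and 1141 in WT control and at 528, 384, 1692 and 1874 in CDX2 KO embryos 2 to 5. The CDX2 KO embryos fell into a low pair, 2 and 3, and a pair inside the WT control range, 4 and 5, as they did for KRT8 and KRT18. The log2 fold change was -0.62 (95% interval -1.86 to 0.62, adjusted p = 0.900 from limma), -0.22 without embryo 3 and 0.44 with the covariate for Y-linked counts. Embryos 2 and 3 also had the lowest total counts of the table, 218797 and 100731.

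MSN was at 140, 102 and 123 in WT control and at 184, 156, 378 and 165 in CDX2 KO embryos 2 to 5. All 4 CDX2 KO embryos were above every WT control embryo, which made MSN the 1 of 6 members without overlap, against 5.88% of all transcripts tested. The means were 122 ± 19.2 (SD, n = 3) and 221 ± 105 (SD, n = 4), and the log2 fold change was 0.77 (95% interval -0.14 to 1.68, adjusted p = 0.900 from limma), and it ran from 0.48 without embryo 4, which held the highest value, to 0.90 without embryo 3. Embryo 5, the one with Y-linked counts, held 165, which is within the span of embryos 2 and 3, which had none. With the covariate for Y-linked counts the log2 fold change of MSN was 0.45. Markers of cumulus cells, the somatic cells around the oocyte, were summed as well. Of 10 markers 9 were listed, and the sums did not overlap, at 36.3 to 53.9 normalized counts in WT control and 65.5 to 86.2 in CDX2 KO embryos. Of the 9, CYP11A1 alone was abundant enough to be tested and did not pass (log2 fold change 1.198, limma, adjusted p = 0.900), and the means of PTX3 and STAR were lower in CDX2 KO. PTX3, HAS2, INHBA and FST were each at 0 in at least 1 embryo. In the table of GATA3 KO 3 of the 10 were listed, with sums of 14.0 to 22.1 in WT control and 4.74 to 30.4 in KO embryos, and their part in MSN was not tested.

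Likeness of the members across embryos was described for pairs. In the table of CDX2 KO, KRT8 and KRT18 had an r of 0.91 over 7 embryos (Spearman's rho 0.96), and 0.93 without the 2 embryos farthest from the median of KRT8, and KRT18 was place 267 of 5718 among the transcripts most like KRT8. In that of GATA3 KO the same values were 0.59, 0.50 and 0.26, and KRT18 was place 359 of 4270. EZR had an r of 0.91 with KRT8 and 0.81 with KRT18 in the table of CDX2 KO, and of 0.68 and 0.02 in the other. Without the 2 embryos farthest from the median of EZR, these were 0.61 and 0.42, and 0.84 and 0.49. Without the 2 farthest from that of KRT8, EZR and KRT8 had 0.76 in CDX2 KO and 0.32 in GATA3 KO. MSN had an r of 0.07 with KRT8 and -0.12 with KRT18 in the table of CDX2 KO. In that of GATA3 KO it had 0.14 with KRT8 and ran opposite to KRT18, with -0.68. The latter was -0.78 without the 2 embryos farthest from the median of KRT18. Its r with KRT19 and KRT7 was not taken. In the table of GATA3 KO the 3 transcripts most like KRT8 were INSIG1, TMEM79 and TXNDC5 (r = 0.97 to 0.98), and in that of CDX2 KO TSPAN14 and TUBA1B were among them (r = 0.99). Those most like KRT18 were FADS3, FAT1 and LARS1 (r = 0.94 to 0.97), and SNX8, RAB15 and RWDD4 (r = 0.97 to 0.99). Those most like EZR were DSTN, an actin depolymerizing factor, TAGLN2 and TMED10 (r = 0.96 to 0.98), and PFN1, which binds actin monomers, ALDOA and RPS27A (r = 0.99). These r are Pearson's on log2 values, they describe likeness over 7 libraries that differ in group and depth, and no p is given.

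Gene lists for the structures that these proteins attach to were compared next. Of 31 other keratins only KRT5 could be tested, a keratin of basal epithelial cells, and its normalized counts were 2.37 to 20.2 in WT control and 5.96 to 40.1 in GATA3 KO embryos. Its log2 fold change was 1.45 in GATA3 KO (adjusted p = 0.186 from limma) and 1.97 in CDX2 KO (adjusted p = 0.900). Of 10 other intermediate filament genes 3 were tested and 0 passed in either table. NES had -1.47 (limma, adjusted p = 0.208) and PRPH -0.60 (adjusted p = 0.549) in GATA3 KO, and PRPH had -0.73 (adjusted p = 0.928) in CDX2 KO. There its KO embryos ran from 0 to 66.3, and their mean of 24.0 was above the 18.7 of WT control. Of 22 genes of desmosomes and plakins, which anchor keratin filaments at junctions, 8 were tested in the table of GATA3 KO and 13 in that of CDX2 KO, and 0 passed. DSP, which links keratins to the desmosome, was at 35.7 to 124 in WT control and 47.6 to 56.9 in GATA3 KO embryos, and its log2 fold change was -0.58 (limma, adjusted p = 0.325). JUP, a desmosome plaque protein, had -0.18 in GATA3 KO and -0.21 in CDX2 KO (adjusted p = 0.685 and 0.946), and FBF1, which binds keratin, had 1.09 in CDX2 KO (adjusted p = 0.900).

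**Figure D5:**
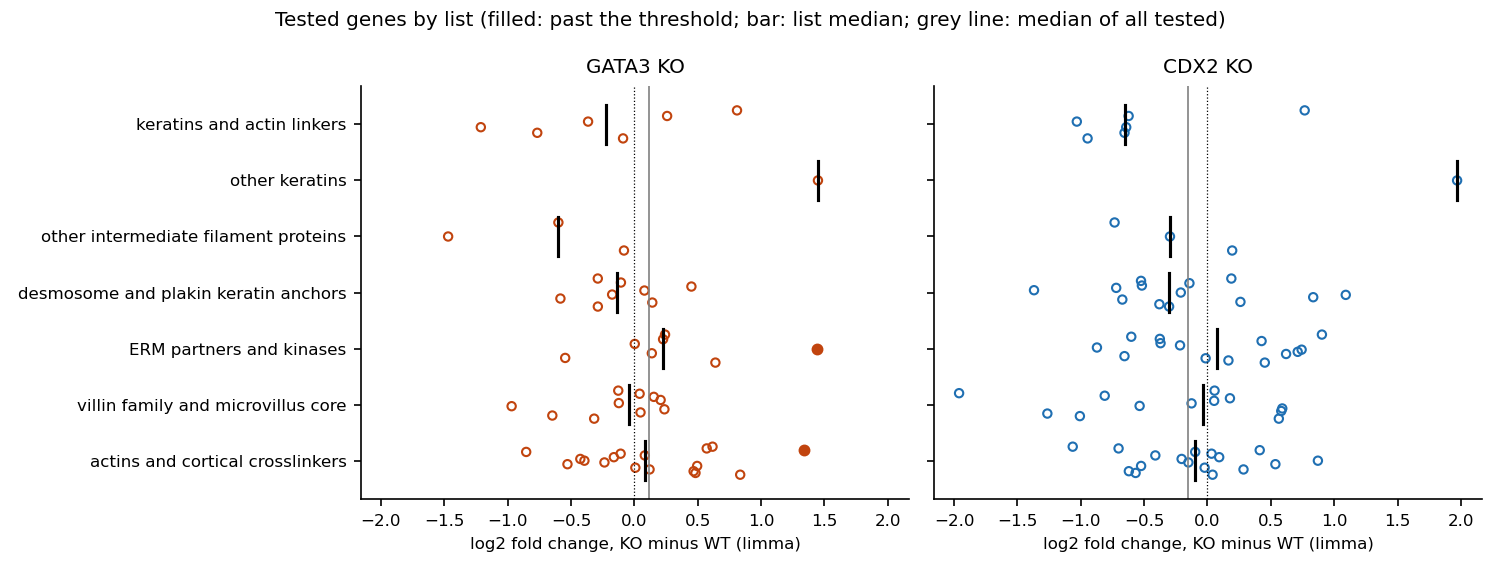
Log2 fold change of KO minus WT control (horizontal axis) of each tested gene, by list, for GATA3 KO on the left and CDX2 KO on the right, where filled points passed the threshold, bars are list medians and the grey line is the median of all transcripts tested. The 2 filled points, RHOA and TPM1, are in GATA3 KO.

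Of 30 partners and kinases of ERM proteins, 7 were tested in the table of GATA3 KO, and 1 passed. This was RHOA, a GTPase upstream of ERM activation, which rose from 24.9 to 63.9 in WT control to 82.2 to 126 in GATA3 KO embryos (log2 fold change 1.44, adjusted p = 0.0245 from limma). The median of the list was 0.23, beside 0.11 over all transcripts tested. In CDX2 KO 0 of 14 passed, with a median of 0.08, RDX (radixin), an ERM gene, at -0.87 and NHERF1, a scaffold that binds ezrin, at -0.65 (adjusted p = 0.900 for both). Of 32 genes of the villin family and the microvillus core, 0 of 10 passed in GATA3 KO and 0 of 12 in CDX2 KO. MYO1C, a membrane-bound myosin, was at 54.4 to 76.7 in WT control and 15.9 to 47.6 in GATA3 KO embryos. Its groups did not overlap, as for 18.9% of all transcripts tested there (log2 fold change -0.97, adjusted p = 0.105 from limma). CAPG, a capping protein of the gelsolin and villin family, had -0.32 in GATA3 KO (adjusted p = 0.452). In CDX2 KO its normalized counts were 327 to 451 in WT control and 141 to 228 in KO embryos, and those of SCIN, of the same family, were 18.3 to 63.4 and 2.33 to 15.9. Both lay below every WT control embryo in 4 of 4 CDX2 KO embryos, where 5.88% of all transcripts tested had no overlap. The log2 fold changes were -1.01 and -1.96 (limma, adjusted p = 0.900 for both).

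Of 23 actins and cortical crosslinkers, 17 were tested in each table. In GATA3 KO 1 passed, TPM1, a tropomyosin that coats actin filaments, which rose from 12.4 to 22.1 in WT control to 28.0 to 59.3 in KO embryos (log2 fold change 1.34, adjusted p = 0.0345 from limma). With edgeR TPM1 did not pass (adjusted p = 0.0504). With 1 embryo left out, RHOA passed in 3 and TPM1 in 2 of 7 fits, and over all 7 the log2 fold changes ran from 1.17 to 1.83 for RHOA and from 1.17 to 1.56 for TPM1. With the covariate for Y-linked counts, which sets GATA3 KO embryo 6 alone against WT control, the values were 1.32 for RHOA and 1.51 for TPM1. In CDX2 KO 0 of 17 passed, with ACTB at -0.57 (adjusted p = 0.900) and FLNC at 0.87 (adjusted p = 0.900). Summed TE markers were at 631 to 1463 in WT control and 799 to 1068 in GATA3 KO embryos, and at 883 to 2240 and 485 to 1283 in the table of CDX2 KO. The TE marker SLC34A2, a phosphate transporter, accounted for much of the latter difference, with 209 to 841 in WT control and 39.8 to 50.5 in CDX2 KO embryos (log2 fold change -3.34, limma, adjusted p = 0.0505). In GATA3 KO it was at 90.5 to 206 against 146 to 539 in WT control (log2 fold change -1.40, limma, adjusted p = 0.0518). The part of the TE markers in the keratin values was not tested. Of the 8 TE markers tested in GATA3 KO 2 passed, named here after their values were seen: GATA2 fell by 1.16 and TFAP2C rose by 1.03 on the log2 scale (limma, adjusted p = 0.0344 and 0.0442). With 1 embryo left out GATA2 passed in 3 and TFAP2C in 2 of 7 fits, at -1.34 to -1.01 and 0.83 to 1.24. TFAP2C did not pass after quantile normalization (log2 fold change 0.86, limma, adjusted p = 0.0584). With the covariate for Y-linked counts, again embryo 6 alone against WT control, GATA2 was at -0.99 and TFAP2C at 1.06. Sums of ICM markers (124 to 157 in WT control, 62.2 to 180 in GATA3 KO) and hypoblast markers (722 to 874, 542 to 1248) overlapped between groups, and POU5F1 and FN1 made up most of them. Single markers differed from these sums, with median log2 fold changes of -0.95 over 3 ICM and -1.08 over 5 hypoblast markers tested, 0 of which passed. The hypoblast marker COL4A1 was at 36.3 to 45.1 in WT control and 11.6 to 33.3 in GATA3 KO embryos (log2 fold change -1.08, limma, adjusted p = 0.0901). Its groups did not overlap, as for 18.9% of all transcripts tested. The ICM markers SOX2 and NANOG had -0.95 and -1.10 (limma, adjusted p = 0.206 and 0.412). In each of these 2 lists 1 tested marker did not fall, POU5F1 at 0.001 and FN1 at 0.14. Their part in the member values was not tested. In whole embryos, fewer cells of a type and less RNA per cell cannot be told apart.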

How the data were processed

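RNA of 11 single embryos was analysed from 2 deposited tables, in which the signal per embryo is a normalized count. Per the methods of the study, the authors used Trimmomatic 0.39 for trimming, HISAT2 2.1.0 for mapping (genome ARS-UCD1.2), featureCounts 1.6.3 for counting and DESeq2 for differential expression. Columns of the authors' own fold changes and p-values were not used. All values (100%) were whole multiples of 1 step per column, within 0.02, so reads were recovered. Header numbers tied the WT control columns to their samples, while a KO column was assigned to its group only and keeps its header number. The same WT control embryos hold 1.86 to 1.88 times the counts in the table of CDX2 KO. At these depths 3 counts correspond to 4.53 to 29.8 CPM, which covers counting error only, since libraries had no molecular identifiers. Nothing in the labels says that embryos came from separate fertilizations, so p-values measure the spread between these embryos.

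Accessions were matched to symbols through the RefSeq genes of ARS-UCD2.0 (98.6% of transcripts in each table), and no coordinates of that build are given. Transcripts averaging 10 or more were tested in limma 3.58.1 (R 4.3.3), on log2(value + 1) and with the trend option of its prior, and p-values were adjusted by Benjamini-Hochberg over the whole table. For low transcripts this scale makes fold changes look smaller. Alternatives were other pseudocounts, filters, scalings and fold thresholds, edgeR 4.0.16 and DESeq2 1.42.0 on recovered reads, and leaving out each embryo. A covariate for Y-linked counts was added after the data were seen. In those fits the KO difference rests on GATA3 KO embryo 6 alone and on CDX2 KO embryo 5 alone. Exact permutation tests used Python 3.11.15 with scipy 1.17.1. In simulated data with 200 transcripts changed 4-fold, limma recovered 92.5% for the design of GATA3 KO and 44% for that of CDX2 KO. There were 12 and 2 false calls. All transcripts of a design shared 1 dispersion (0.065 and 0.184), and smaller changes were not simulated. The members and gene lists were chosen with earlier results of these data known. Named were all members, the targeted genes, list genes past the threshold or, where a list had none, the one of smallest p and the most abundant, and the 3 transcripts most like KRT8, KRT18 and EZR, of which 1 is not reported here. KRT8 and KRT18 have near-identical pseudogene copies in mammalian genomes, so reads could be split in counting.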

Additional observations from a re-analysis of the deposited data

How the results depend on the processing

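No paired analysis was possible because the KO columns carry numbers that are not the replicate numbers of the labels. In GATA3 KO, 86 transcripts passed the threshold (66 higher, 20 lower). It was 145 with a pseudocount of 5, 172 with no filter and 37 with a mean of at least 100. DESeq2 gave 158 (72 higher, 86 lower). When an embryo was left out the number ran from 1 to 293. It was 1 without WT control embryo 2 or GATA3 KO embryo 3, 2 without GATA3 KO embryo 4 and 18 without WT control embryo 3. Without GATA3 KO embryo 5 it was 39, without GATA3 KO embryo 6 it was 183 and without WT control embryo 1 it was 293. Quantile normalization gave 48 higher and 57 lower, and it was 56 and 53 after median ratio rescaling and 57 and 69 with edgeR, and these scalings moved the median log2 fold change of all transcripts from 0.11 to between 0.00 and 0.01. Relative to the 0.11, KRT18 was at -0.88, KRT19 at -1.32 and MSN at 0.70 in GATA3 KO. In CDX2 KO, 0 passed, against 1 with a pseudocount of 5, a mean of at least 100, median ratio rescaling or edgeR, 2 with no filter or quantile normalization, 10 with DESeq2, and 0 to 1 when an embryo was left out. There the median moved from -0.15 to -0.04 and -0.03.

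Among members in GATA3 KO, KRT18 passed with DESeq2 (-0.95), and KRT19 passed with no filter and a mean of at least 100 (-1.21), edgeR (-1.27) and DESeq2 (-1.26). With an embryo left out KRT18 ran from -1.13 to -0.55, KRT19 from -1.56 to -0.96, KRT8 from -0.44 to 0.21 (0.01 without GATA3 KO embryo 4), KRT7 from -0.59 to -0.19 and MSN from 0.64 to 1.15. EZR was at 0.05 after quantile normalization. MSN reversed to -0.22 with the covariate for Y-linked counts. In CDX2 KO, KRT18 reversed to 0.075 after quantile normalization, and KRT7 to 0.14 and EZR to 0.44 with that covariate. With an embryo left out there, KRT8 ran from -1.32 to -0.42, KRT18 from -1.04 to -0.39, KRT7 from -1.42 to -0.72 and EZR from -0.98 to -0.22. The KRT8 to KRT18 difference ran from 0.53 to 0.85 in GATA3 KO and from -0.50 to 0.064 in CDX2 KO with an embryo left out, and these splits cannot reach significance. The causes were not tested. VIL1 and KRT7 rest on few counts, and depth limits what can be said of them.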
